A study of Mus musculus with 15 samples.

Results

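Submandibular glands of NOD/LTJ mice that had been given SJQYD were compared with those of untreated NOD/LTJ mice. The comparison used 10 of the 15 libraries of the series, chosen by their labels alone: 5 called SJQYD and 5 called model. NOD/LTJ mice, labelled wild type, are a strain whose salivary glands become infiltrated by immune cells, and the series was deposited as a study of Sjögren's syndrome. The labels name the treatment only by the letters SJQYD, and they give no dose, duration, route, age, sex or hour of collection. No vehicle is named for the model mice, whose treatment is given as none. The 5 other libraries, called control, came from untreated wild type ICR mice, an outbred stock, and their levels are set beside the others as values without a test. The labels do not say how the mice relate to each other, so p-values measure the spread between these libraries, which may be technical in part.

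RNA carrying poly(A) tails was sequenced and counted per gene. Total counts ran from 52746925 to 68694263 in the model libraries and from 39510018 to 62335235 in the SJQYD libraries. Libraries differed in the products of other salivary glands, as the plot of gland markers by library shows. Amy1, Chia1, Bpifa2 and Smr3a, secretory products that are abundant in the adjoining parotid gland, together held 16.0% of the counts of model 3, 6.50% of SJQYD 1 and 2.11% of model 1, against at most 0.271% in the other 7 model and SJQYD libraries. Their part in the results was not tested. Muc19, the mucin of the sublingual gland, ran from 14.9 to 3376 CPM in the model group and from 8.91 to 5259 CPM in the SJQYD group, where CPM is the normalised read count scaled to the library, a CPM with ± is a mean with its SD over 5 libraries, and a log2 fold change with ± has its SE. Bpifb2, also checked as a sublingual marker, read 0 in all model libraries and at most 0.195 CPM in the SJQYD libraries. The submandibular label is met by Mucl2, a mucin-like acinar product that held 15.5% of the counts in SJQYD 1 and 25.8% to 46.4% in the other 9. Xist, which marks an inactive X chromosome, stood at 1.01 CPM in SJQYD 3 and at 163 to 238 CPM in the model libraries, and 2 Y-linked genes, Ddx3y and Eif2s3y, read 0.109 and 0.0621 CPM in SJQYD 3. The same 2 genes read 0.207 and 0.0751 CPM in control 4, where Xist stood at 189 CPM. Uty, another Y-linked gene, read 0 in SJQYD 3, where 3 counts correspond to 0.0466 CPM. Counts of calls are given with and without model 3, SJQYD 1 and SJQYD 3, and calls of named genes lost only when they were left out together are stated.

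**Figure D1:**
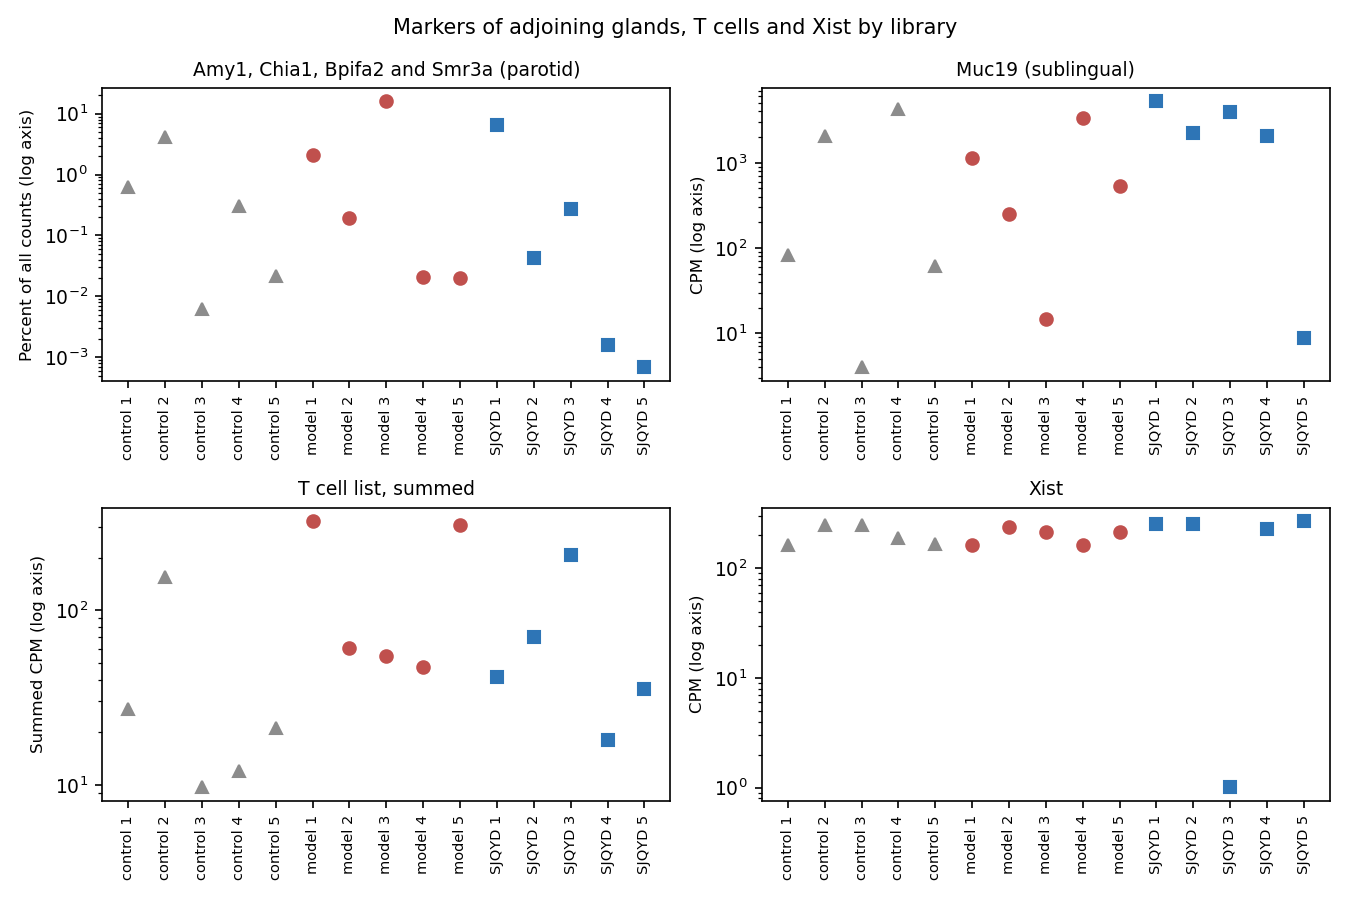
Level of markers by library on log axes: percent of all counts from 4 parotid products (top left), CPM of Muc19 (top right), summed CPM of 21 T cell genes (bottom left) and CPM of Xist (bottom right). Triangles are control, circles model and squares SJQYD libraries. Model 3 and SJQYD 1 have the highest parotid shares of their groups at 16.0% and 6.50%, and SJQYD 3 has by far the lowest Xist, at 1.01 CPM.

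Several processes come up in these results. The circadian clock is a loop of transcription: ARNTL with CLOCK or NPAS2 switches on genes through E-box sites, among them the period and cryptochrome genes, whose proteins then repress that pair, and output factors such as DBP and TEF act on further genes through D-box sites. Salivary glands carry such a clock, and their secretory cells also run a large flow of protein through the endoplasmic reticulum, where chaperones fold it, enzymes add N-glycans and coated vesicles carry it on. Interferons, released when immune cells enter a gland, switch on antiviral genes and antigen presentation.

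Of 18136 genes tested, 498 (2.75%) differed between SJQYD and model at an adjusted p under 0.05 by edgeR's quasi-likelihood test. They were higher in SJQYD for 346 genes (1.91%) and lower for 152 (0.838%), and 74 (0.408%) and 53 (0.292%) of these differed at least 2-fold. The median log2 fold change of all tested genes was -0.03, and 53.2% of the genes lay below 0. An unadjusted p under 0.05 by edgeR was met by 2936 genes, and DESeq2 called 622 of 16042 genes higher and 451 lower. In bulk tissue fewer cells of a type and less RNA per cell cannot be told apart. Libraries of the groups did not overlap for 998 genes (5.50%), with SJQYD above for 583 (3.21%) and below for 415 (2.29%). Among these were 304 of the 346 higher and 124 of the 152 lower genes. With 1 library left out the number called ran from 333 without model 2 to 500 without model 4, over the model and SJQYD libraries. Without both model 3 and SJQYD 1 it was 207, of which 202 were also called with all libraries, and without SJQYD 3 as well it was 110, of which 106 were.

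Clock genes held 10 of the 15 steepest rises and 2 of the 15 steepest falls chosen by the rule for named genes. Of 22 clock genes tested, 12 were higher in the SJQYD glands and 3 lower, against 1.91% and 0.838% of all genes, and the median log2 fold change of the 22 was 1.43. By role, among the called genes, the repressors Per1, Per2, Per3, Cry2, Ciart and Bhlhe41 and the outputs Dbp, Tef, Hlf, Usp2 and Wee1 rose. The activators Arntl, Npas2 and Clock fell, while Nr1d2, a nuclear receptor of the loop, rose. The other 7 genes, among them the repressor Cry1, were not called, and 6 of the 22 had a log2 fold change below 0. Wee1, Clock and the nuclear receptor Nr1d1 are named for completeness and were chosen after their values were seen. Summed over the list, the libraries stood at 200.4 to 316 CPM in the model group and 820.1 to 931 CPM in the SJQYD group.

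The promoters of 4 genes that rose are shown because they carry the sites through which the loop is known to act. Each is the 250 bases before the start given by RefSeq (GRCm38.p6), read 5′ to 3′ on the gene's strand, with E-boxes (CACGTG) and D-boxes (TTATGNAA, on either strand) in capitals. They lie at chr11:69098699-69098948 on the plus strand for Per1, chr4:151044666-151044915 on the minus strand for Per3, chr3:95882229-95882478 on the minus strand for Ciart and chr1:55052520-55052769 on the plus strand for Coq10b, a coenzyme Q binding protein of mitochondria that is no member of the clock list.
Per1: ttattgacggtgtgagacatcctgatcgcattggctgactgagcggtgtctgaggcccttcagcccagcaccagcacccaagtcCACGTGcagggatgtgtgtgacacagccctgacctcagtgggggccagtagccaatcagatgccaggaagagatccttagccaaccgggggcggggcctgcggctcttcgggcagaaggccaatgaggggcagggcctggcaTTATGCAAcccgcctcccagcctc
Per3: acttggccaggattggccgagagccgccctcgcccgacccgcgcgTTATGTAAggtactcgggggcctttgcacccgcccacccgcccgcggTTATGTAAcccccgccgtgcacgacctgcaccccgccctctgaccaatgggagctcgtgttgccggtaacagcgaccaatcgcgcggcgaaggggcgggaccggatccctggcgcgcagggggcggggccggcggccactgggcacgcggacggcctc
Ciart: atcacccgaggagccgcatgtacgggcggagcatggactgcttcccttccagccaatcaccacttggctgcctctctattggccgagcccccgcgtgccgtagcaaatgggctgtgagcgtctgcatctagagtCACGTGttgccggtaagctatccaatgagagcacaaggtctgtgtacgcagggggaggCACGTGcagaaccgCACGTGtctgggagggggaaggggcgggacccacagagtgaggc
Coq10b: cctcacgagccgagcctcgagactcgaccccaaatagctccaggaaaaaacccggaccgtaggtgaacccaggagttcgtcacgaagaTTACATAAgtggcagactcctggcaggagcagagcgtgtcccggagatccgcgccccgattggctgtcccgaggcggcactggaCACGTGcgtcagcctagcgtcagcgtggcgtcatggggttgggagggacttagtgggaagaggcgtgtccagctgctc
Ciart carried 3 E-boxes, whose first bases lie 116, 58 and 44 bases before the start. Per1 had an E-box at 166 and a D-box at 24, Per3 had D-boxes at 205 and 158 and no E-box, and Coq10b had an E-box at 78 and a D-box at 162. Of the 12 clock genes that rose, 10 have a promoter in the table, 4 of them with an E-box (Bhlhe41, Ciart, Per1 and Tef) and 2 with a D-box. Over all 32851 promoters 6.02% hold an E-box and 3.07% a D-box. A gene was counted if any of its promoters held the site, while these shares are over single promoters, so they are not like for like. Of the 3 clock genes that fell, all in the table, 0 hold either, and of the 7 not called 4 are in the table, of which 1 (Cry1) holds an E-box and 0 a D-box. A match is a string of letters in this window and was not tested as a site.

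Among the repressors, Per2 (ENSMUSG00000055866, GRCm38 chromosome 1, 91415982 to 91459324, minus strand) read 2.67, 3.08, 1.07, 4.22 and 2.16 CPM in model 1 to 5 and 50.5, 55.2, 42.7, 26.4 and 41.8 CPM in SJQYD 1 to 5. The lowest SJQYD library stood above the highest model library, and the fold change was 16.4. Per3 (ENSMUSG00000028957, chromosome 4, 151003652 to 151044665, minus strand) read 4.80, 8.02, 3.78, 7.52 and 2.61 CPM in the model libraries and 63.5, 68.8, 56.6, 37.7 and 47.3 CPM in the SJQYD libraries, so that it rose by 3.36 ± 0.41 on the log2 scale (SE, adjusted p = 0.000598 by edgeR). The control libraries lay at 2.81 to 6.33 CPM for Per2 and 2.10 to 7.10 CPM for Per3. Cry2, a cryptochrome, rose from 6.05 ± 1.29 to 18.1 ± 3.50 CPM and Ciart, which represses the ARNTL complex, from 1.03 ± 0.642 to 8.12 ± 2.28 CPM. Per1 read 12.7, 16.0, 16.1, 43.0 and 16.9 CPM in the model libraries, where model 4 stood apart, and 62.4 to 111 CPM in the SJQYD libraries, and its adjusted p was 0.00443, or 0.0939 without model 3, SJQYD 1 and SJQYD 3 together. Bhlhe41, a repressor that binds E-boxes, rose by 2.05 ± 0.30 on the log2 scale (SE, adjusted p = 0.00135).

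Among the outputs, Usp2, a deubiquitinase, had the smallest p of all genes (edgeR adjusted p = 4.85e-06). Usp2 (ENSMUSG00000032010, chromosome 9, 44067021 to 44095627, plus strand) read 4.13, 6.31, 4.22, 8.27 and 3.56 CPM in model 1 to 5 and 50.0, 47.7, 34.1, 27.4 and 40.0 CPM in SJQYD 1 to 5, 7.51-fold higher, with 4.66 to 5.29 CPM in the control libraries. Dbp, a D-box factor, showed the largest rise and also a wide spread among model libraries: it read 3.90, 11.9, 2.56, 18.0 and 1.47 CPM in model 1 to 5 and 136, 168, 204, 229 and 235 CPM in SJQYD 1 to 5. Its log2 fold change was 4.68 ± 0.87 (SE, adjusted p = 0.0131), moved to 5.29 without model 4, and its call was lost without model 3 and SJQYD 1 together (adjusted p = 0.0612). Dbp shares bases with Sphk2 on the other strand, and the strand setting of the counting is not given in the sources used here, so that reads of such pairs may not be told apart. The same limit holds, among others, for Syvn1, Gmppb, Nfkb2, Erap1, Tapbpl and Foxp3, named below. Tef and Hlf, of the same family as Dbp, rose from 24.5 ± 9.24 to 177 ± 22.6 CPM and from 1.03 ± 0.162 to 3.21 ± 0.296 CPM. For Tef no library overlapped, yet the call was lost without any 1 of model 1, model 2, model 3, model 5 and SJQYD 1 (adjusted p up to 0.0714). Wee1, a kinase that holds cells before division, stood at 0.495 to 1.48 CPM in the model and 1.55 to 3.20 CPM in the SJQYD libraries, and its call was lost without any 1 of model 1, model 3, model 5, SJQYD 1, SJQYD 2, SJQYD 3, SJQYD 5 and control 3 (adjusted p up to 0.0974).

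Among the activators, Arntl (ENSMUSG00000055116, chromosome 7, 113207465 to 113314126, plus strand) read 12.8, 8.47, 12.9, 4.88 and 20.3 CPM in the model libraries and 0.484, 0.824, 1.07, 1.13 and 1.07 CPM in the SJQYD libraries. Npas2, a partner of ARNTL, read 4.37, 3.59, 9.05, 3.79 and 6.55 CPM and 0.649, 0.282, 0.683, 0.793 and 0.978 CPM in the same order. Both were far lower in every SJQYD library than in any model library, and Clock, the other partner, fell less, by 0.56 ± 0.11 on the log2 scale (SE, adjusted p = 0.0112), from 11.6 ± 0.846 to 7.85 ± 0.740 CPM. Clock lost its call without model 3 and SJQYD 1 together (adjusted p = 0.0567). Nr1d2 rose from 30.2 ± 9.15 to 90.8 ± 6.41 CPM. Nr1d1, its near relative, overlapped between groups at 20.9 to 57.2 and 39.2 to 105 CPM and was not called (adjusted p = 0.221).

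The model libraries varied among themselves along the same genes. Taking the 15 called clock genes, model 4 was the model library nearest to the SJQYD group for 10 and model 2 for the other 5. The ratio of Arntl to Dbp was 3.29, 0.71, 5.05, 0.271 and 13.8 in model 1 to 5, and lay between 0.00355 and 0.00526 in the 5 SJQYD libraries. In the control libraries it was 53.2, 3.95, 24.5, 60.0 and 1.38. The SJQYD libraries thus held a narrow range of this ratio, and the model and control libraries a wide one. The labels give no hour of collection, so the hour and the treatment cannot be told apart for these genes. Of the 22 clock genes, 10 to 12 were called higher and 3 lower with any 1 library left out, 9 and 2 without model 3 and SJQYD 1 together, and 8 and 2 without SJQYD 3 as well. DESeq2 called 12 and 4 of them, against 622 and 451 of 16042 genes, and 10 and 2 were called on log2(FPKM + 1).

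**Figure D2:**
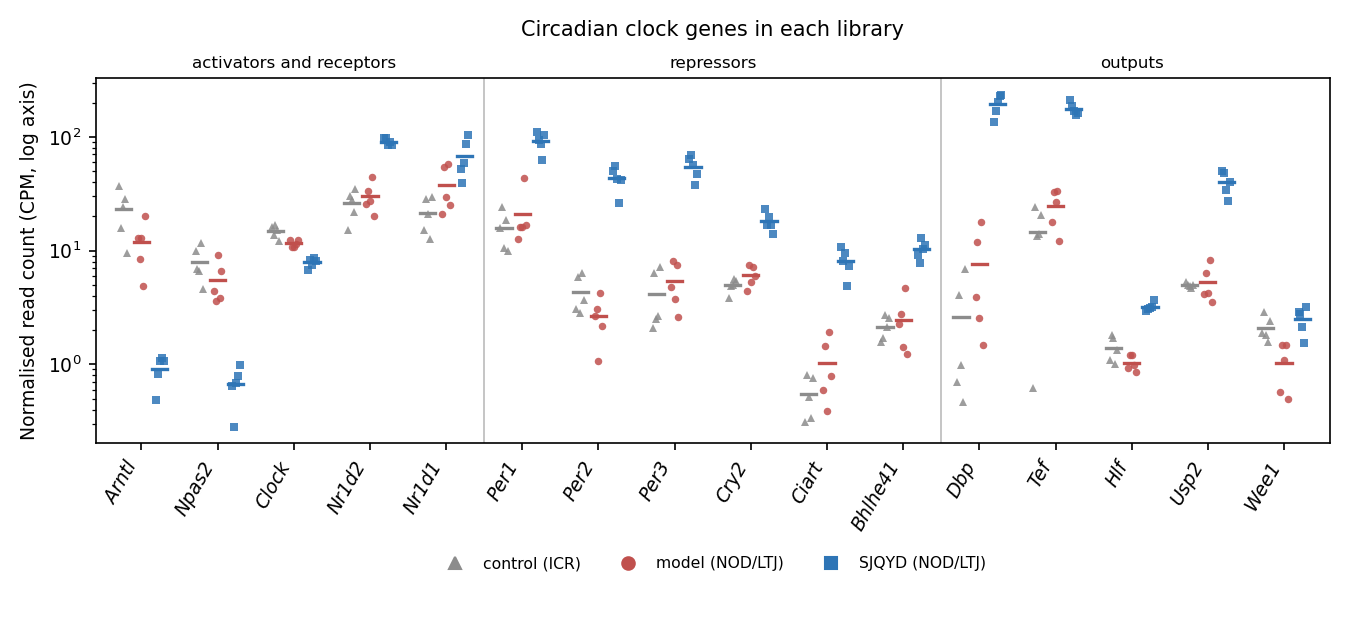
Normalised read count (CPM, log axis) of 16 clock genes in each library, grouped by role. Triangles, circles and squares are the 5 control, 5 model and 5 SJQYD libraries and bars their means. For 15 genes every SJQYD library lies outside the range of the model libraries, and Nr1d1 overlaps.

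Among genes called, changed at least 2-fold, at 5 CPM or more in the mean of the higher group and without overlap, of which 39 rose and 25 fell, the steepest 15 in each direction also held 5 rises and 13 falls outside the clock. Coq10b rose 3.88-fold, from 3.57, 3.14, 2.75, 2.56 and 3.14 CPM in model 1 to 5 to 11.7, 12.2, 12.4, 8.82 and 13.7 CPM in SJQYD 1 to 5 (adjusted p = 5.83e-06). Zfp9, a zinc finger protein, rose from 5.97 ± 0.594 to 18.6 ± 2.52 CPM and Mir22hg, the host transcript of a microRNA, from 2.68 ± 0.743 to 8.93 ± 2.71 CPM. Noct, a rhythmic enzyme also called nocturnin, rose by 1.5 ± 0.24 on the log2 scale (SE, adjusted p = 0.00350). Ccn1, a matricellular protein, rose by 1.53 ± 0.34 (SE), with SJQYD 3 at 13.8 CPM and the other SJQYD libraries at 5.04 to 6.24 CPM, and lost its call without any 1 of model 1, model 2, model 3 and SJQYD 3 (adjusted p up to 0.0643).

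The falls outside the clock were led by a pair of neighbours. Slc25a34, a mitochondrial carrier, and Tmem82, a membrane protein of little known function, lie 190 bases apart on the minus strand of chromosome 4 (GRCm38, 141618824 to 141623821 and 141613376 to 141618633). Slc25a34 read 25.5, 49.7, 57.1, 42.1 and 45.4 CPM in model 1 to 5 and 8.24, 9.97, 10.9, 16.7 and 12.1 CPM in SJQYD 1 to 5, and Tmem82 read 19.9, 37.9, 39.7, 20.8 and 43.2 CPM and 14.7, 8.76, 5.59, 10.7 and 9.35 CPM. Neither overlapped between groups, and their log2 fold changes were -1.93 ± 0.22 and -1.71 ± 0.28 (SE, adjusted p = 0.000189 and 0.00448). Tjp3, a scaffold protein of tight junctions, fell from 52.7 ± 13.3 to 17.2 ± 5.64 CPM. It shares bases with Apba3 on the other strand.

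Leo1, a subunit of the PAF1 complex that travels with RNA polymerase, read 6.38, 8.18, 6.70, 5.65 and 7.57 CPM in model 1 to 5 and 2.60, 2.60, 2.79, 3.08 and 2.69 CPM in SJQYD 1 to 5, with little spread in either group. Arl4a, a small GTPase, fell from 22.3 ± 5.02 to 9.79 ± 1.38 CPM and Col5a3, a collagen chain, from 15.4 ± 5.13 to 5.35 ± 2.35 CPM. Col5a3 was not called without model 3, SJQYD 1 and SJQYD 3 together (adjusted p = 0.0726), and neither was Plac8 (adjusted p = 0.0761). Zc3h12d, an RNA-binding protein of immune cells, and Plac8 fell by 1.31 ± 0.25 and 1.27 ± 0.24 on the log2 scale (SE). Ly6a, a surface protein known as Sca-1 and induced by interferon, fell by 1.41 ± 0.32 (SE) and lost its call without any 1 of model 1, model 5, SJQYD 1, SJQYD 2, SJQYD 4 and SJQYD 5 (adjusted p up to 0.0867). Cx3cr1, B2m and Ifi27l2a, also among the 15 falls, are described with their lists. Bmf, a BH3-only protein that promotes cell death, fell from 16.6, 15.9, 20.3, 21.2 and 21.9 CPM to 6.34, 5.40, 9.0, 10.7 and 7.04 CPM (adjusted p = 0.000548).

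Genes of the secretory pathway, where called, were higher in the SJQYD glands. Of 32 genes of folding and degradation in the endoplasmic reticulum, 8 rose and 0 fell, and 29 had a log2 fold change above 0, with a median of 0.34. Of 37 genes of vesicle coats and translocation 8 rose and 0 fell (median 0.33, 36 above 0), of 20 genes of N-glycan synthesis 4 rose and 0 fell (median 0.20), and of 20 aminoacyl-tRNA synthetases 2 rose and 0 fell (median 0.13). Among all genes tested 1.91% rose, and the median was -0.03. The summed level of the folding genes was 1987 to 2833 CPM in the model libraries and 2906 to 3239 CPM in the SJQYD libraries, and 2413 to 3471 CPM in the control libraries.

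These counts moved with single libraries and with the method. The folding count fell to 4 or 5 without any 1 of model 1, 2, 3 and 5 and SJQYD 1, 2 and 5, and the coat and translocation count fell to 4 or 5 without any 1 of model 1, 2, 3 and 5 and SJQYD 1, 2, 3 and 4. Without both model 3 and SJQYD 1, 3 folding genes, 3 coat and translocation genes, 3 N-glycan genes and 2 synthetases were called, and without SJQYD 3 as well, 2, 2, 1 and 1. The log2(FPKM + 1) scale left 1, 0, 0 and 0 genes called. DESeq2 called 13, 12, 4 and 3, where it called 622 of 16042 genes higher. Muc19, the sublingual mucin, stood at 2081 to 5259 CPM in SJQYD 1 to 4 and at 3376 CPM in model 4, and at 8.91 CPM in SJQYD 5. Its part in these results was not tested. Of the 22 genes called in these 4 lists, SJQYD 1 was the highest SJQYD library for 14, and SJQYD 5 the lowest for 9 and the highest for 3.

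Syvn1, the ubiquitin ligase that clears misfolded proteins (ENSMUSG00000024807, chromosome 19, 6046576 to 6053712, plus strand), read 47.4, 39.9, 43.6, 43.9 and 39.6 CPM in model 1 to 5 and 89.8, 66.1, 66.5, 76.6 and 93.0 CPM in SJQYD 1 to 5. Dnajb9, a cochaperone, read 7.52, 6.58, 7.88, 8.94 and 5.25 CPM and 23.5, 17.2, 20.9, 17.5 and 12.9 CPM, and Hyou1, an exchange factor for the chaperone HSPA5, 25.2, 20.6, 19.8, 33.2 and 20.5 CPM and 54.9, 41.0, 49.0, 42.9 and 62.1 CPM. None of the 3 overlapped between groups, and their log2 fold changes were 0.87 ± 0.11, 1.35 ± 0.19 and 1.07 ± 0.17 (SE, adjusted p = 0.000547, 0.000820 and 0.00212). Hyou1 was not called without model 3, SJQYD 1 and SJQYD 3 together (adjusted p = 0.0559). Txndc5, a disulfide isomerase, rose by 0.63 ± 0.13 (SE). Hspa5 itself, chosen after its values were seen, stood at 91.8 to 168 CPM in the model and 151 to 223 CPM in the SJQYD libraries and was not called (adjusted p = 0.135).

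The other 4 calls of the folding list were weaker. Herpud1, which helps to degrade misfolded proteins, had model 4 at 157 CPM within the SJQYD range, rose by 1.03 ± 0.24 (SE) and lost its call without any 1 of model 1, model 2, model 3, model 5, SJQYD 1, SJQYD 2 and SJQYD 4 (adjusted p up to 0.0712). Creld2, a folding factor, rose by 0.81 ± 0.20 and lost its call without any 1 of model 2, model 3, model 4, model 5, SJQYD 1, SJQYD 2 and SJQYD 5 (up to 0.0851). Atf6b, a membrane-bound stress factor, rose by 0.40 ± 0.10 and lost it without any 1 of model 1, model 2, model 3, model 5, SJQYD 1, SJQYD 3 and SJQYD 5 (up to 0.0793). Pdia3, a disulfide isomerase of glycoproteins, rose by 0.49 ± 0.12 and held its call without model 4, control 2, control 3 or control 5 alone, and lost it without any 1 of the other 11 libraries (up to 0.114).

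The ER stress element, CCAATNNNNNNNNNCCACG on either strand, is the site bound by ATF6 and XBP1, and 37 of 32851 promoters (0.113%) hold it in the 250 bases before their start. Of the 8 folding genes that rose, 7 have a promoter in the table and 2 of these hold it, Syvn1 (chr19:6046326-6046575, plus strand) and Creld2 (chr15:88819396-88819645, plus strand), shown with the element in capitals.
Syvn1: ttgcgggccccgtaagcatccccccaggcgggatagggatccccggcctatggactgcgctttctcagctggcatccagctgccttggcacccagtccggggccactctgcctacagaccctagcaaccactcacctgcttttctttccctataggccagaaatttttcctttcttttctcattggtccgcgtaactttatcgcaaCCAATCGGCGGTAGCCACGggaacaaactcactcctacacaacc
Creld2: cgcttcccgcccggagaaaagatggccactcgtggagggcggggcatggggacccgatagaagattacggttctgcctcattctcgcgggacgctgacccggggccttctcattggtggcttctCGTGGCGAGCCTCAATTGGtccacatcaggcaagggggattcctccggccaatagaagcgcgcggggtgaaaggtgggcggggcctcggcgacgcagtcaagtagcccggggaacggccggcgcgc
Its first base lies 44 bases before the start of Syvn1 and 126 before that of Creld2, on the reverse strand in Creld2. Among the 24 folding genes not called, 18 have a promoter in the table and 6 hold the element (Calr, Canx, Dnajc3, Hsp90b1, Hspa5 and Pdia6). The element was thus found in called and uncalled folding genes alike. A gene was counted if any of its promoters held the element, while the 0.113% is over single promoters, so these are not like for like.

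Past the folding step, Sec24a, a cargo-binding subunit of the COPII coat, read 15.0, 14.4, 14.3, 16.7 and 16.6 CPM in model 1 to 5 and 29.0, 32.0, 26.6, 30.5 and 28.2 CPM in SJQYD 1 to 5, 1.9-fold higher. Copg1, a subunit of the COPI coat, rose from 47.2 ± 1.82 to 73.1 ± 6.92 CPM, and Sec31a, of the outer COPII coat, from 78.0 ± 6.09 to 118 ± 15.0 CPM. Sec61a1, the core of the channel through which new proteins enter the endoplasmic reticulum, rose from 183 ± 30.5 to 317 ± 40.4 CPM. It lost its call without model 3 and SJQYD 1 together (adjusted p = 0.0584), as did Txndc5 (adjusted p = 0.0627), and Sec31a lost its call without SJQYD 3 as well (adjusted p = 0.0880).

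Lman1, a cargo receptor, Sar1a, the GTPase that starts the COPII coat, Kdelr2, a retrieval receptor, and Srprb, of the signal recognition particle receptor, rose by 0.70 ± 0.16, 0.44 ± 0.10, 0.58 ± 0.14 and 0.44 ± 0.11 (SE). Lman1 lost its call without any 1 of model 1, model 2, model 3, model 5, SJQYD 3 and SJQYD 4 (adjusted p up to 0.0705) and Sar1a without any 1 of model 2, model 3, model 5, SJQYD 1, SJQYD 2, SJQYD 3 and SJQYD 4 (up to 0.0828). Kdelr2 lost it without any 1 of model 1, model 2, model 3, model 5, SJQYD 1, SJQYD 2, SJQYD 3, SJQYD 4 and control 3 (up to 0.102). Srprb held it only without model 4 or control 2 alone among the 15 libraries (up to 0.112).

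All 4 N-glycan enzymes that rose had no overlap between groups, as was the case for 304 of the 346 genes called higher. Ganab and Mogs are the glucosidases that trim the new glycan, and they rose from 58.7 ± 4.94 to 87.0 ± 7.40 CPM and from 31.7 ± 4.77 to 50.5 ± 8.33 CPM. Dpagt1, which starts the lipid-linked precursor, and Gmppb, which makes GDP-mannose, rose by 0.72 ± 0.14 and 0.74 ± 0.15 (SE, adjusted p = 0.00964 and 0.0138). Without model 3 and SJQYD 1 together Gmppb lost its call (adjusted p = 0.0757), and without SJQYD 3 as well so did Dpagt1 and Mogs (adjusted p = 0.0722 and 0.0880). Among the synthetases Qars rose from 47.3 ± 6.31 to 70.6 ± 5.72 CPM and Tars by 0.55 ± 0.12 (SE), the latter not without any 1 of model 1, model 2, SJQYD 1 and SJQYD 4 (adjusted p up to 0.0596). Farsa stood at 0.32 ± 0.10 and was not called (adjusted p = 0.0960).

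Of 17 genes of the integrated stress response 1 rose, against 1.91% of all genes, and 0 fell, with a median of 0.10. The count that rose was 2 without model 4, without SJQYD 4 or by DESeq2. Atf4, the transcription factor at its centre, read 119, 129, 135, 148 and 104 CPM in model 1 to 5 and 288, 226, 202, 210.4 and 163 CPM in SJQYD 1 to 5, without overlap (adjusted p = 0.00798). Ddit3 and Atf3, its known targets, stood at 0.76 ± 0.24 and -1.09 ± 0.39 and were not called (adjusted p = 0.103 and 0.155). Ddit3 is listed under 2 identifiers that overlap, so that its reads may be split, and it passed the threshold without SJQYD 4 (adjusted p = 0.0474). Atf4 remained called without model 3 and SJQYD 1 together, and without SJQYD 3 as well its adjusted p was 0.0833.

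**Figure D3:**
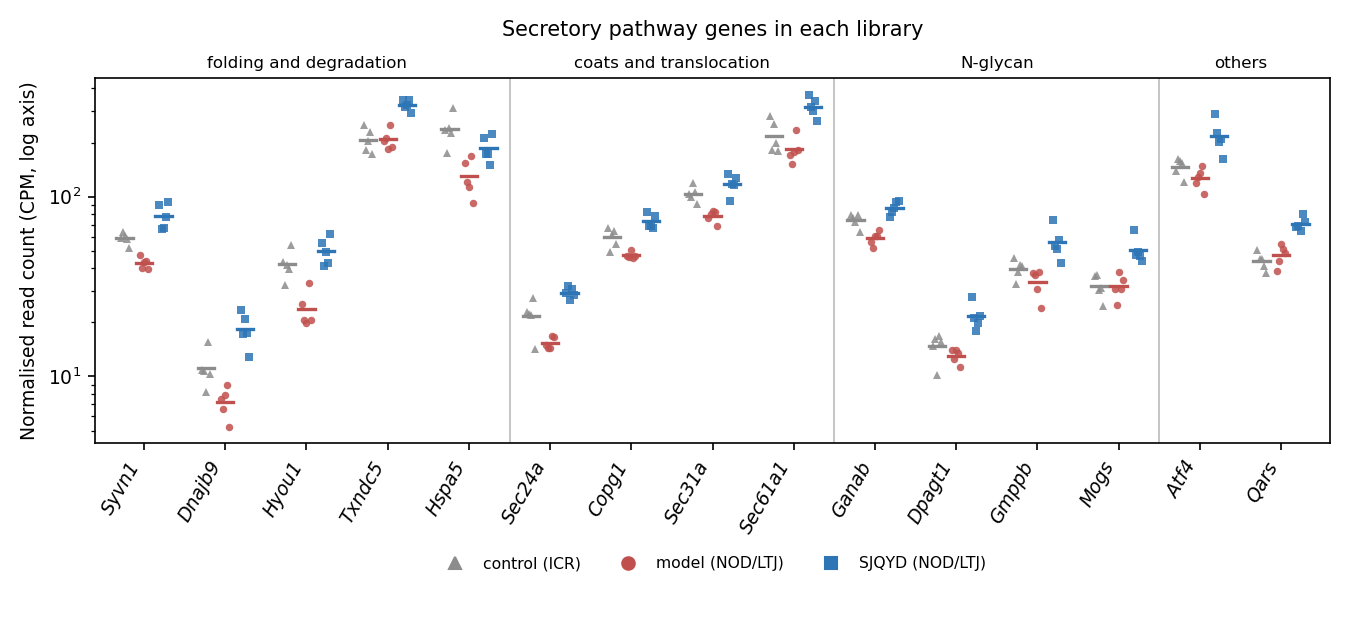
Normalised read count (CPM, log axis) of secretory pathway genes, Atf4 and Qars in each library. Triangles, circles and squares are the 5 control, 5 model and 5 SJQYD libraries and bars their means. All genes plotted other than Hspa5 have every SJQYD library above every model library. Herpud1, called with overlap between groups, is not plotted.

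Interferon genes, where called, were lower in the SJQYD glands, and how many were called differed between methods. Of 32 genes of the type I interferon response 5 fell and 0 rose, 30 had a log2 fold change below 0, and the median was -0.90, where 53.2% of all genes were below 0 and 0.838% fell. Mx1, an antiviral GTPase, read 6.79, 2.51, 3.28, 7.95 and 8.99 CPM in model 1 to 5 and 1.88, 2.56, 1.51, 1.70 and 1.97 CPM in SJQYD 1 to 5, so that SJQYD 2 overlapped model 2. Oasl2, of the oligoadenylate synthetase family, read 7.63, 9.94, 7.76, 12.7 and 6.95 CPM and 4.46, 3.43, 3.80, 3.00 and 5.66 CPM without overlap. Their log2 fold changes were -1.62 ± 0.32 and -1.14 ± 0.24 (SE, adjusted p = 0.0112 and 0.0142). In the control libraries Mx1 stood at 1.3 to 2.63 CPM and Oasl2 at 4.45 to 9.46 CPM.

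The other 3 calls were Cmpk2, a mitochondrial nucleotide kinase, Ifit2, which binds foreign RNA, and Ifi27l2a, an interferon-induced gene with close relatives. Cmpk2 fell by 1.43 ± 0.32 (SE) and lost its call without any 1 of model 5, SJQYD 1, SJQYD 3 and SJQYD 4 (adjusted p up to 0.0628). Ifit2 fell by 1.34 ± 0.33 and lost it without any 1 of model 1, model 4, model 5, SJQYD 1, SJQYD 2, SJQYD 4, SJQYD 5 and control 4 (up to 0.108). Ifi27l2a fell by 1.25 ± 0.31, with model 1 at 757 CPM and the other model libraries at 300.3 to 407 CPM, and lost it without any 1 of model 1, model 2, model 3, model 4, SJQYD 1, SJQYD 2, SJQYD 3, SJQYD 4 and control 2 (up to 0.113). The list's count was 2 without SJQYD 1 or SJQYD 4, 3 without model 1, model 5 or SJQYD 3, and at most 7 with any other library left out. Without model 3 and SJQYD 1 together 1 gene was called, as the adjusted p of Oasl2 rose to 0.0521, and without SJQYD 3 as well 0 were, with Mx1 at 0.0825. In the list 27 of 32 genes had an unadjusted p under 0.05, where 2936 of all 18136 genes met it. DESeq2 called 18 of the list lower, against 451 of 16042 genes, and 0 were called on log2(FPKM + 1).

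Of 23 genes induced by interferon gamma 1 fell, against 0.838% of all genes, 0 rose and all 23 were below 0, with a median of -0.83. Irf1, a transcription factor, read 36.8, 30.0, 26.1, 27.5 and 35.6 CPM in model 1 to 5 and 18.5, 20.6, 23.6, 15.3 and 20.1 CPM in SJQYD 1 to 5, and fell by 0.67 ± 0.13 on the log2 scale (SE, adjusted p = 0.0112). Gbp7 and Iigp1, GTPases that act on vacuoles of pathogens, stood at -0.83 ± 0.23 and -0.91 ± 0.28 and were not called (adjusted p = 0.0615 and 0.103), although Gbp7 passed the threshold without model 4 or without control 3 and Iigp1 without SJQYD 2. The count was 3 without model 4 or without control 5, and 2 without SJQYD 2 or without control 3. In the list 14 of 23 genes had an unadjusted p under 0.05, where 2936 of all 18136 genes met it. DESeq2 called 6 of the list lower, against 451 of 16042 genes, and 0 were called on log2(FPKM + 1). Ifng itself lay at 0.0770 to 0.474 CPM in the model and 0.0699 to 0.238 CPM in the SJQYD libraries, and was not called (adjusted p = 0.71).

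Among 19 genes of MHC class I and peptide loading 1 fell, against 0.838% of all genes, 0 rose and the median was -0.44. B2m, the light chain of MHC class I, read 344, 265, 511, 319 and 282 CPM in the model and 135, 169.6, 142, 109.5 and 165 CPM in the SJQYD libraries, with 75.7 to 195 CPM in the control libraries. It was lower in every SJQYD library than in any model library (log2 fold change -1.25 ± 0.24, SE, adjusted p = 0.0103), but was not called without model 3 and SJQYD 1 together (adjusted p = 0.0707). Erap1 and Tapbpl, which trim and edit peptides, stood at -0.43 ± 0.15 and -0.48 ± 0.19 and were not called (adjusted p = 0.138 and 0.197). Both share bases with a gene on the other strand that holds more counts, Cast (10098 against 8662) and Vamp1 (25384 against 12475). All 8 genes of MHC class II were below 0 (median -0.77) and 0 were called by edgeR, with 4 at an unadjusted p under 0.05 and 1 called by DESeq2. Over all genes these last 2 counts were 2936 of 18136 and 1073 of 16042. Cd74, the invariant chain, H2-DMb1 and H2-Aa stood at -0.90 ± 0.26, -1.02 ± 0.36 and -0.84 ± 0.33 (adjusted p = 0.0834, 0.153 and 0.212), and Cd74 passed the threshold without control 5 (adjusted p = 0.0368).

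Myeloid markers moved in the same direction as these genes. Of 23 myeloid and dendritic genes 3 fell, against 0.838% of all genes, 0 rose and the median was -0.62. The summed level of all 26 genes of that list, filtered or not, was 217 to 279 CPM in the model and 118 to 174 CPM in the SJQYD libraries, without overlap, and 122 to 194 CPM in the control libraries, and 0 of the 26 were at 0 in all 10. Its part in the interferon and MHC results was not tested.

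Cx3cr1, the fractalkine receptor of monocytes and macrophages, read 8.97, 11.7, 10.1, 6.41 and 5.54 CPM in model 1 to 5 and 2.78, 2.84, 2.11, 2.89 and 4.45 CPM in SJQYD 1 to 5 (adjusted p = 0.00137). Its gene model in the files overlaps 6 other genes, 3 of them on the other strand, so that the reads assigned to it are uncertain. Itgam, the integrin CD11b, fell from 2.90 ± 0.275 to 1.10 ± 0.324 CPM, and its call was lost without model 3 and SJQYD 1 together (adjusted p = 0.0709). C1qa, a complement chain made by macrophages, fell by 0.61 ± 0.16 (SE) and was called only without SJQYD 5, control 2 or control 5 among the fits with 1 library left out (adjusted p up to 0.136 in the others). Without model 3 and SJQYD 1 together 1 myeloid gene was called, and without SJQYD 3 as well 0 were, with Cx3cr1 at an adjusted p of 0.0510. DESeq2 called 7 genes of the list lower, against 451 of 16042 genes, and 1 was called on log2(FPKM + 1).

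No gene of the T cell, cytotoxic lymphocyte and B cell lists was called by edgeR. On simulated counts this procedure called 39.6% of genes changed 2-fold, so an uncalled gene may still differ. Of 21 T cell genes, 15 genes of cytotoxic lymphocytes and 15 of B cells, 0 were called, all had a log2 fold change below 0, and the medians were -1.09, -1.10 and -0.98. At an unadjusted p under 0.05 the counts were 0, 8 and 0, where 2936 of all 18136 genes met it, and DESeq2 called 0, 3 and 0. The summed T cell level was 324 and 309 CPM in model 1 and model 5, 47.0 to 60.5 CPM in the other 3, and 208 CPM in SJQYD 3 against 18.0 to 70.6 CPM in the other SJQYD libraries. The groups overlapped, with model 1, model 5 and SJQYD 3 far above the rest.

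Cd3e, which encodes a CD3 subunit, read 10.7, 2.04, 1.12, 1.59 and 8.02 CPM in model 1 to 5 and 0.474, 1.78, 3.77, 0.378 and 1.43 CPM in SJQYD 1 to 5 (adjusted p = 0.460). Trac, the constant region of the receptor's alpha chain, and Foxp3, of regulatory T cells, stood at -1.95 ± 0.96 and -1.25 ± 0.71 on the log2 scale (adjusted p = 0.345 and 0.419). Nkg7, of cytotoxic granules, stood at -1.37 ± 0.36 (adjusted p = 0.0538) and passed the threshold without any 1 of model 4, SJQYD 3, control 1 and control 5, and Ncr1, a receptor of natural killer cells, stood at -1.18 ± 0.36 and passed it without model 4 (adjusted p = 0.0943 with all libraries). Ccl5, a chemokine of T cells, stood at -1.40 ± 0.47 (adjusted p = 0.144). Among B cell genes, Fcer2a, Cd37 and Ms4a1, which encodes CD20, stood at -1.81 ± 0.94, -1.15 ± 0.64 and -1.14 ± 0.74 (adjusted p = 0.376, 0.421 and 0.50), and the libraries did not overlap for Fcer2a.

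Of 16 plasma cell genes 0 were called by edgeR, 0 had an unadjusted p under 0.05 and DESeq2 called 0, 10 were below 0 and the median was -0.08, near that of all genes. Ighm, the heavy chain of IgM, read 66.7, 105, 123, 146 and 43.0 CPM in model 1 to 5 and 12.1, 58.7, 46.7, 53.0 and 84.1 CPM in SJQYD 1 to 5. Derl3, of the degradation machinery of the endoplasmic reticulum, and Tnfrsf13b, the receptor TACI, stood at 0.47 ± 0.23 and -0.84 ± 0.40 (adjusted p = 0.339 and 0.314). Of 13 lymphoid chemokines and survival factors 0 were called by edgeR (median -0.47, 0 at an unadjusted p under 0.05, 0 by DESeq2). Cxcl13, the chemokine that draws B cells into follicles, read 8.61, 7.18, 9.84, 12.5 and 5.26 CPM and 0.959, 6.48, 3.35, 2.34 and 2.22 CPM (adjusted p = 0.324), and Cxcl12 and Tnfsf13, which encodes APRIL, stood at -0.28 ± 0.15 and 0.76 ± 0.45 (adjusted p = 0.394 and 0.443).

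Of 30 genes of NF-kB signalling, cytokines and adhesion 3 fell, against 0.838% of all genes, 0 rose and the median was -0.59. They were Nfkb2 and Relb, partners in the noncanonical pathway, and Birc3, a ubiquitin ligase that NF-kB induces, at -0.61 ± 0.14, -0.86 ± 0.22 and -0.71 ± 0.18 (SE, adjusted p = 0.0287, 0.0493 and 0.0395). None of these calls is firm: 0 genes of the list were called without any 1 of model 1, model 2, SJQYD 1, SJQYD 3 and SJQYD 4, 1 without model 4, model 5 or SJQYD 5, and 0 without model 3 and SJQYD 1 together. DESeq2 called 5 genes of the list lower, against 451 of 16042 genes, and 0 were called on log2(FPKM + 1). Nfkb2 kept its call without any 1 of model 3, model 4, model 5, SJQYD 5 and the 5 control libraries and had an adjusted p of up to 0.0824 in the other fits, against up to 0.126 for Relb and 0.110 for Birc3.

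**Figure D4:**
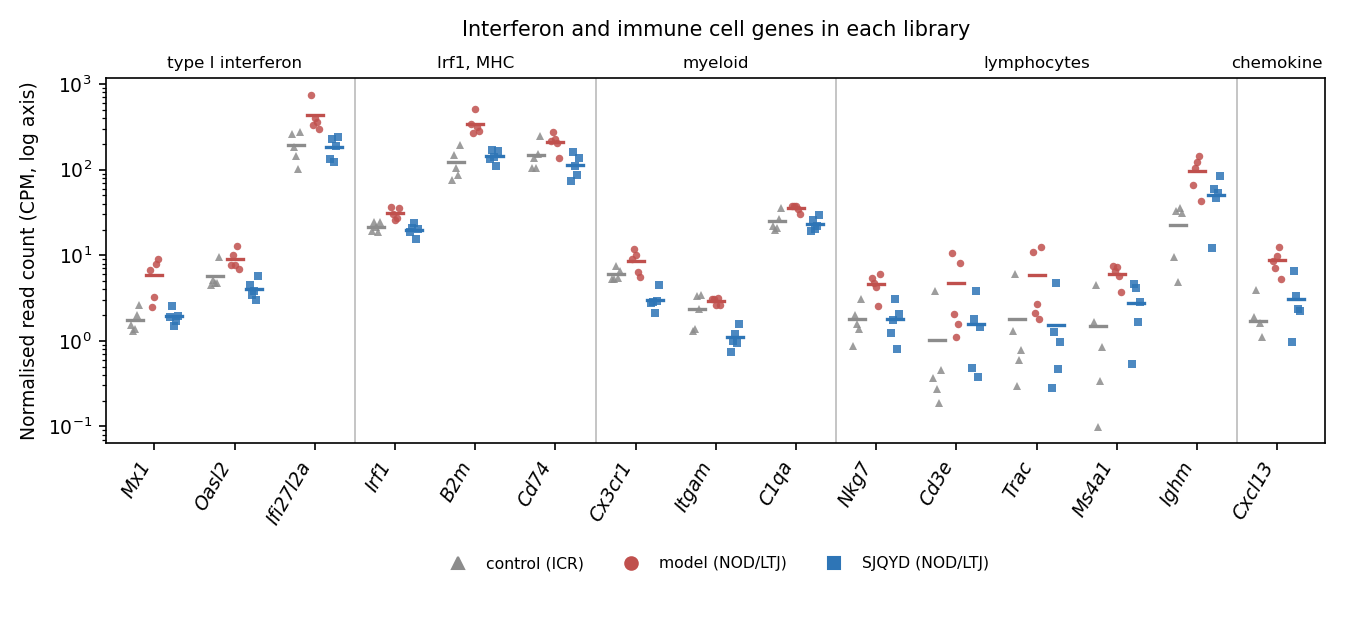
Normalised read count (CPM, log axis) of interferon, MHC, myeloid, lymphocyte and chemokine genes in each library. Triangles, circles and squares are the 5 control, 5 model and 5 SJQYD libraries and bars their means. Oasl2, Ifi27l2a, Irf1, B2m, Cx3cr1, Itgam and C1qa separate SJQYD from model, and the 5 lymphocyte genes plotted overlap.

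Few genes of the gland's own functions were called. Of 18 acinar products and factors 0 were called by edgeR (median 0.17, 4 at an unadjusted p under 0.05, 3 by DESeq2), and of 23 granular duct products 0 were called (median 0.00, 1 at an unadjusted p under 0.05, 0 by DESeq2). Over all genes 2936 of 18136 had an unadjusted p under 0.05 by edgeR, and DESeq2 called 1073 of 16042. Spdef and Creb3l2, factors of secretory cells, and Bhlha15, the acinar factor MIST1, stood at 0.97 ± 0.26, 0.56 ± 0.16 and 0.47 ± 0.15 (adjusted p = 0.0548, 0.0765 and 0.101), and Spdef passed the threshold without any 1 of model 4, SJQYD 5, control 4 and control 5. Mucl2 stood at 213891 to 474575 CPM in the model and 83434 to 509531 CPM in the SJQYD libraries (log2 fold change 0.01 ± 0.38, with either sign over the alternatives). Egf, the growth factor of granular ducts, read 91.5, 129, 171, 52.5 and 128 CPM and 69.7, 52.6, 76.1, 72.7 and 237 CPM (adjusted p = 0.928). Klk1, a kallikrein, Ascl3, of ionocytes, and Nrtn stood at -0.36 ± 0.29, -0.69 ± 0.30 and 0.17 ± 0.15 (adjusted p = 0.604, 0.266 and 0.631).

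Of 21 genes of fluid secretion 1 fell, against 0.838% of all genes, 0 rose and the median was -0.04. It was Car2, a carbonic anhydrase, at 15.9 to 26.1 CPM in the model and 7.09 to 12.8 CPM in the SJQYD libraries (adjusted p = 0.0135, and 0.0865 without model 3 and SJQYD 1 together). Aqp5, the water channel of acini, read 345, 359, 327, 429.7 and 252 CPM in model 1 to 5 and 573, 424, 509, 458 and 364 CPM in SJQYD 1 to 5, with a log2 fold change of 0.44 ± 0.16 that was not called (adjusted p = 0.164). Chrm3, the muscarinic receptor that drives secretion, read 4.69, 6.15, 8.54, 7.52 and 4.93 CPM and 7.23, 0.607, 5.39, 6.57 and 3.97 CPM, SJQYD 2 being far below the rest (adjusted p = 0.787). Vipr1, the receptor of vasoactive intestinal peptide, stood at 1.06 ± 0.47 (adjusted p = 0.275). Of 13 tight junction genes only Tjp3, described above, was called (2 by DESeq2), and Cldn1, a claudin of these junctions, stood at -0.79 ± 0.28 (adjusted p = 0.148).

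Of 21 genes of cell death 2 fell, against 0.838% of all genes, 0 rose and the median was -0.38. Beside Bmf they held Bbc3, which encodes PUMA, at 3.98 to 6.91 CPM in the model and 1.81 to 3.46 CPM in the SJQYD libraries, a call lost without any 1 of model 2, model 4, SJQYD 1, SJQYD 2, SJQYD 4 and SJQYD 5 (adjusted p up to 0.0968). DESeq2 called 4 genes of this list lower, against 451 of 16042 genes. Tnfsf10, the ligand TRAIL, stood at -0.89 ± 0.26 (adjusted p = 0.0744) without overlap between groups and passed the threshold without control 3 (adjusted p = 0.0479).

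Genes known to respond fast to stimuli, hormones or temperature were counted as well, where 1.91% of all genes rose and 0.838% fell. Of 24 immediate early genes 3 fell, 0 rose and the median was -0.15: Dusp6, a phosphatase that ERK induces, Ier5 and Egr1, at -0.88 ± 0.18, -1.02 ± 0.21 and -1.44 ± 0.32 (SE, adjusted p = 0.0121, 0.0139 and 0.0222). Egr1 lost its call without any 1 of model 1, model 2, SJQYD 1, SJQYD 2, SJQYD 4 and SJQYD 5 (adjusted p up to 0.0637), and Dusp6 and Ier5 without model 3 and SJQYD 1 together (adjusted p = 0.0568 and 0.0586). Of 20 glucocorticoid-induced genes 1 fell, 0 rose and the median was 0.15. Pdk4, a kinase that spares glucose, read 2.44, 11.6, 16.7, 10.5 and 8.23 CPM and 2.44, 2.82, 2.86, 2.61 and 5.68 CPM, overlapped through model 1, and lost its call without any 1 of model 2, model 3, model 4, SJQYD 1, SJQYD 2, SJQYD 3 and SJQYD 4 (adjusted p up to 0.0908). Tsc22d3 and Klf9, induced by the receptor, stood at 0.82 ± 0.23 and 0.48 ± 0.21 (adjusted p = 0.0716 and 0.262), and Tsc22d3 passed the threshold without model 5 or without SJQYD 4.

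Of 23 heat shock genes 2 rose, against 1.91% of all genes, 0 fell and the median was 0.09. Dnajb4 stood at 4.31 to 6.77 CPM in the model and 8.14 to 11.8 CPM in the SJQYD libraries, Bag3 rose by 0.69 ± 0.17 (SE) and Cryab stood at -0.53 ± 0.19 (adjusted p = 0.0130, 0.0406 and 0.149), and Bag3 lost its call without any 1 of model 2, model 3, model 4, model 5, SJQYD 1, SJQYD 2, SJQYD 3 and SJQYD 5 (adjusted p up to 0.0947). Of the 2 cold-inducible genes Rbm3 rose by 0.60 ± 0.16 and Cirbp stood at -0.11 ± 0.17 (SE, adjusted p = 0.0498 and 0.821). Rbm3 was called only without model 4 or SJQYD 4 among the fits with 1 library left out (adjusted p up to 0.115 in the others). The 17 lists not described here, with 214 tested entries, held 1 gene that rose, the peroxiredoxin Prdx6, which was not called without model 3 and SJQYD 1 together, and 1 that fell, the autophagy gene Gabarapl1, whose call was kept only without control 2 or control 5 among the fits with 1 library left out.

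**Figure D5:**
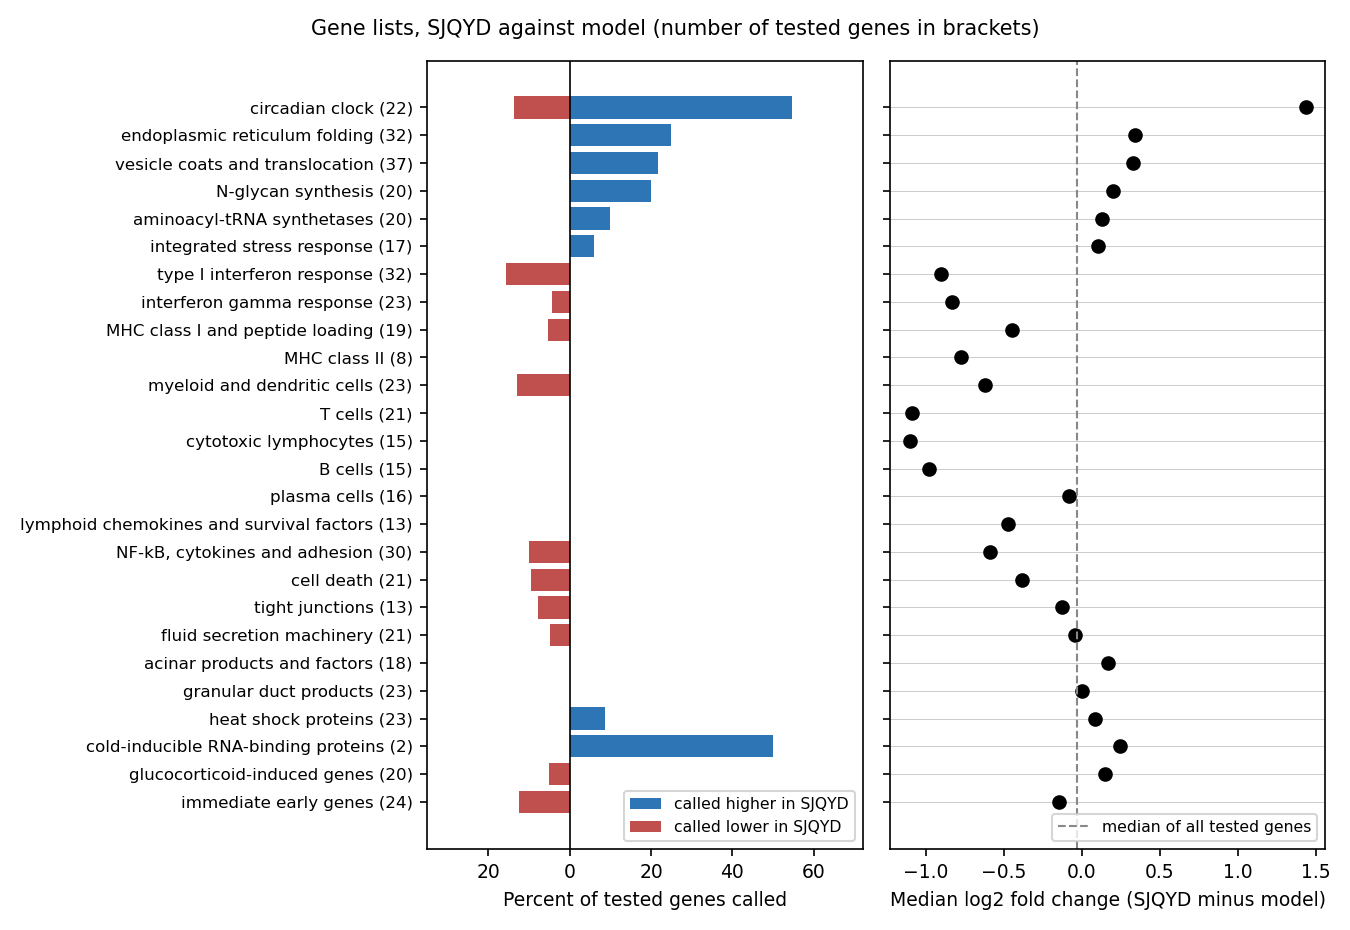
The 26 gene lists described, with the number of tested genes in brackets: at left the percent called higher (bars to the right) and lower (bars to the left) in SJQYD, at right the median log2 fold change of the list (points) beside that of all tested genes (dashed line, -0.03). The clock list stands apart with 12 of 22 genes higher and 3 lower, and the T cell, cytotoxic and B cell lists have medians near -1 without a call.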

How the data were processed

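RNA was measured in 15 submandibular gland libraries, 5 per group. Per the labels' protocols, RNA was drawn with Trizol, selected on oligo(dT) beads and made into strand-marked libraries. Per the submitters' processing notes, cutadapt 1.9, HISAT2 2.0.4, UMI-tools and StringTie 1.3.4d were among the tools. The notes name mm9, whereas the gene coordinates in the deposited table equalled those of GRCm38 for 28337 of 32385 genes compared (87.5%), and GRCm38 is used here. Whether counts were collapsed by molecular identifier, and the strand setting, are not given in the sources used here. SDs are taken over the 5 libraries of a group. Each SE is the absolute log2 fold change divided by the square root of the F statistic of the edgeR test. SDs and SEs thus both include the spread between libraries. The deposited count matrix held whole-number counts for 55401 genes, 22922 of them at 0 in all libraries, and the authors' FPKM table gave the symbols and served for alternatives.

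Counts were fitted with edgeR 4.0.16 (R 4.3.3, limma 3.58.1): TMM factors, filterByExpr, robust quasi-likelihood fit on all 15 libraries with 1 coefficient per group, and the contrast SJQYD minus model, with Benjamini-Hochberg adjustment over 18136 genes and a threshold of 0.05. Levels are CPM on TMM-adjusted library sizes, and 3 counts correspond to 0.0290 to 0.0650 CPM in the 10 libraries. Overlap means that the ranges of the groups meet. DESeq2 1.42.0, other scalings, filters and FPKM scales, omitted libraries and the replicate block were alternatives, and the procedure was tested on simulated counts. There it called 36 of 91 genes changed 2-fold (39.6%) and 72 of 99 changed 4-fold (72.7%), with 4 false calls among 112. The simulated counts were independent between genes, without shifts of cell type or gland shared by many genes, so these rates may differ from those in the data.

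The text names up to 15 largest rises and falls that passed every criterion given in the report, leaving out predicted genes, pseudogenes and receptor segments. It also names up to 8 called members of each described list (the 3 smallest p where fewer were called), and 10 further genes. A gene that this rule names is not reported here. The members and lists were chosen with earlier results of these data known. Promoters came from the RefSeq table of GRCm38.p6, and the 43 lists held 769 entries, of which 765 matched a symbol.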

Additional observations from a re-analysis of the deposited data

Results flagged for a closer look

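Values that stood apart from the other 4 libraries of their group were looked for among 252 sets of 5, and 24 (9.52%) were found. Chance gives about 5% for independent values with a normal distribution, which was not checked here. The search was made within each group, but most of its genes had been named through the difference between groups. Products of other salivary glands gave several of them. The share of counts from Amy1, Chia1, Bpifa2 and Smr3a was 16.0% in model 3 against at most 2.11% in the other model libraries, and 6.50% in SJQYD 1 against at most 0.271% in the other SJQYD libraries. Amy1 alone, of a family with near-identical copies, read 20270 CPM in model 3 and 5821 CPM in SJQYD 1. Mucl2 held 15.5% of the counts in SJQYD 1 and at least 37.6% in the other SJQYD libraries. Xist read 1.01 CPM in SJQYD 3 and at least 231 CPM in the others. The total count was 39510018 in SJQYD 2 and at least 55732445 in the others.

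Among model libraries, Per1 read 43.0 CPM in model 4 and at most 16.9 CPM in the others, Tjp3 75.8 CPM in model 2 and at most 52.1 CPM in the others, and Ifi27l2a 757 CPM in model 1 and at most 407 CPM in the others. Mir22hg read 4.0 CPM in model 1 (others at most 2.48), Cryab 13.2 CPM in model 4 (others at most 8.32) and Nrtn 5.68 CPM in model 5 (others at least 8.04).

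Among SJQYD libraries, SJQYD 5 stood apart for 6 genes: Noct at 61.7 CPM (others at most 41.3), Egf at 237 (at most 76.1), Pdk4 at 5.68 (at most 2.86), Farsa at 27.1 (at most 23.2) and Cryab at 7.53 (at most 6.01) above the rest, and Kdelr2 at 41.3 (at least 57.0) below it. SJQYD 1 stood above the rest for Mogs at 65.0 CPM (others at most 49.2) and Bag3 at 35.2 CPM (at most 22.7). SJQYD 3 stood above it for Ccn1 at 13.8 CPM (at most 6.24), Trac at 4.69 CPM (at most 1.28) and Egr1 at 2.56 CPM (at most 1.34).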

How the results depend on the processing

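The 498 called genes, and the 127 of them at least 2-fold changed, depended on the settings. Library totals without further scaling gave 43 and 41 (and moved the median of all genes by 0.107 on the log2 scale), DESeq2 1073 and 236, log2(FPKM + 1) 68 and 30, log2(FPKM + 0.1) 57 and 53, log2(FPKM + 1) without a filter 48 and 20, and an adjusted p under 0.01 160 and 61. Chosen after seeing the data, omitting model 3 and SJQYD 1 gave 207 and 68, and omitting SJQYD 3 as well 110 and 48, with fewer samples in each. Omitting 1 model or SJQYD library gave 333 to 500 and 93 to 149, and 1 control library 448 to 527 and 124 to 138. The share of calls that were higher was 69.5%, but 58.0% by DESeq2, 59.6% on log2(FPKM + 0.1), 79.4% at an adjusted p under 0.01 and 78.3% without model 3 and SJQYD 1.

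The replicate block took same-numbered control, model and SJQYD libraries as a set. It gave 401 calls, 360 of them shared, and called 11 type I interferon, 5 folding and 2 interferon gamma genes against 5, 8 and 1. Between SJQYD and model the numbers showed no pairing: same-numbered libraries had correlations of -0.165 to 0.0821, and 1 of 5 correlated best with its own number.

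Genes whose sign turned were all uncalled. Xist stood at 0.03, and at -0.081 under the block, -0.37 on log2(FPKM + 1) with or without the filter, -0.87 on log2(FPKM + 0.1), -0.018 without model 3 and SJQYD 1, and -0.10 to 0.35 with 1 library omitted. Mucl2 stood at 0.01, and at -0.019 on library totals, -0.031 under the block, -0.087 on the 3 FPKM scales and -0.17 to 0.28 with 1 omitted. Egf turned to 0.15 without model 3 and SJQYD 1 and to 0.27 without SJQYD 3 as well (-0.76 to 0.017 with 1 omitted), Cirbp to 0.089 on library totals (-0.25 to 3.4e-05), and Amy1 ran from -5.88 to 0.85 with 1 omitted. Depth limited levels under 3 counts, at most 0.0650 CPM.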

Other observations

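Among the genes called lower were some with hardly any reads in the SJQYD libraries, left out of the report by its rule for named genes. The predicted gene Gm3617, which lies within Npas2, stood at 0.265 CPM in the median of the model group and at 0 in 4 of 5 SJQYD libraries. Colec11, a collectin that binds sugars on microbes, was at 0 in all 5 SJQYD libraries, and its highest model library stood at 0.431 CPM.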
